A study of Drosophila melanogaster with 6 samples.

Results

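The genes described here are the respiratory complex I genes of the fly, taken as all gene symbols in the deposited count files that start with ND-. There were 40 such genes among 17116 symbols. All 40 lie on nuclear chromosomes, so subunits encoded in mitochondrial DNA are not among them. RNA was sequenced from midguts of mated and virgin Drosophila melanogaster females. The midgut is the stretch of the fly intestine where food is digested and taken up. There were 3 mated samples, from females taken 3 days after mating, and 3 virgin samples. All females were 8 days old and of the w1118 genotype, a white-eyed laboratory stock labelled as wild type, and carried no other allele named in the labels. Each sample was a pool of 30 guts, so differences between single flies were not measured. Whether pools stem from different cultures is not given, and p-values therefore measure only the spread between these samples. In such bulk samples, fewer cells of a type and less RNA per cell cannot be told apart.

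Complex I, or NADH dehydrogenase, is the entry point of the mitochondrial respiratory chain: it takes electrons from NADH, passes them along iron-sulfur clusters to ubiquinone and pumps protons across the inner membrane. In mammals, where its assembly is best known, the subunits are grouped into an N module that oxidises NADH, a Q module that reduces ubiquinone, and a membrane arm with a proximal and a distal part that holds the proton pumps. A small set of core subunits does the chemistry, and the many supernumerary subunits around them are needed for assembly and stability. The midgut is an energy-demanding epithelium, and in flies complex I has been linked to intestinal stem cells and to lifespan.

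Of the 40 genes, 32 had enough counts to be tested. Genes were placed in modules by lists of fly gene symbols, and the human counterparts of members are those that RefSeq lists as synonyms. The 32 held 6 N module, 8 Q module, 7 proximal membrane arm and 10 distal membrane arm genes, and ND-MLRQ. ND-MLRQ is the counterpart of NDUFA4, a protein first assigned to complex I and later found in complex IV in mammals. The 8 genes that were not tested were 6 paralogues of complex I genes, ND-B8 of the N module and ND-MNLL of the distal arm. The 40 genes were spread over the genome, with 9 each on 2L, 3L and X, 8 on 2R and 4 on 3R among them. Tested genes had between 420 and 7315 reads in a library, so counting error was small beside the spread between libraries.

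Libraries held 16293718 to 25464204 gene counts in mated and 15902696 to 29021297 in virgin samples. The enterocyte markers of the midgut were abundant, with a summed level of 42375 to 56738 CPM (the gene count relative to the TMM-scaled library size) in mated and 38332 to 46121 CPM in virgin libraries, and 0 of 6 passed the test of mated against virgin. Most of each sum came from alphaTry and betaTry. Markers of visceral muscle, which ensheathes the gut, summed to 3441 to 4774 CPM in mated and 2199 to 2719 CPM in virgin libraries, and 8 of 11 were higher in mated midguts, against 2.47% of all tested genes (7 without mated 3, 5 without virgin 1, 4 without mated 1, 3 without virgin 2, 2 without virgin 3 and 1 without mated 2). The 11 ovary markers summed to 96.9 to 243 CPM in mated and 70.6 to 306 CPM in virgin libraries, with 0 of 3 tested members passing. Most of each sum came from these tested members, Yp1, Yp2 and Yp3, so the sums mainly give the level of those genes. The markers vas, osk, nos and Cp15 were each highest in virgin 2, where osk reached 22.6 CPM. In the other libraries they were at most 1.02 CPM (vas), 0.127 CPM (osk), 0.254 CPM (nos) and 0.137 CPM (Cp15). Cp16 and Cp19 were at 0 in all. The 5 fat body markers summed to 5.70 to 14.3 CPM in mated and 9.70 to 23.9 CPM in virgin libraries, 0 of 2 tested members passed, and Fbp1 was at 0 in all. Progenitor and enteroendocrine markers had 0 of 4 and 0 of 6 tested members passing.

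Complex I genes were expressed at similar levels per length, apart from ND-MLRQ. Levels between genes were compared as FPKM, the CPM divided by the merged exon length in kilobases. Over the 6 libraries the mean FPKM was 38.9 to 133 in 31 of the 32 tested genes, a 3.43-fold range, with a median of 79.7 over all 32. ND-MLRQ stood apart at 432 ± 68.7 FPKM (SD over 6 libraries), 3.24-fold above the next gene. That next gene was ND-ACP, at 133 ± 21.1 FPKM; it encodes the mitochondrial acyl carrier protein, which also serves mitochondrial fatty acid synthesis. It was followed by the distal arm subunits ND-PDSW (129 ± 27.3 FPKM) and ND-SGDH (128 ± 12.8 FPKM). The lowest were ND-13A (38.9 ± 8.83 FPKM), ND-ASHI (39.5 ± 8.95 FPKM) and ND-B18 (40.3 ± 11.1 FPKM). In 30 of the 31 pairs of neighbours in this order the ranges over the 6 libraries overlapped, ND-MLRQ and ND-ACP being the exception. Within libraries, the upper gene of the pair was higher in all 6 in 3 of the 31 pairs, ND-MLRQ above ND-ACP, ND-42 above ND-B22 and ND-MWFE above ND-15. The merged length counts the exons of all isoforms and is longer than the main transcript where a gene has rare long isoforms.

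**Figure D1:**
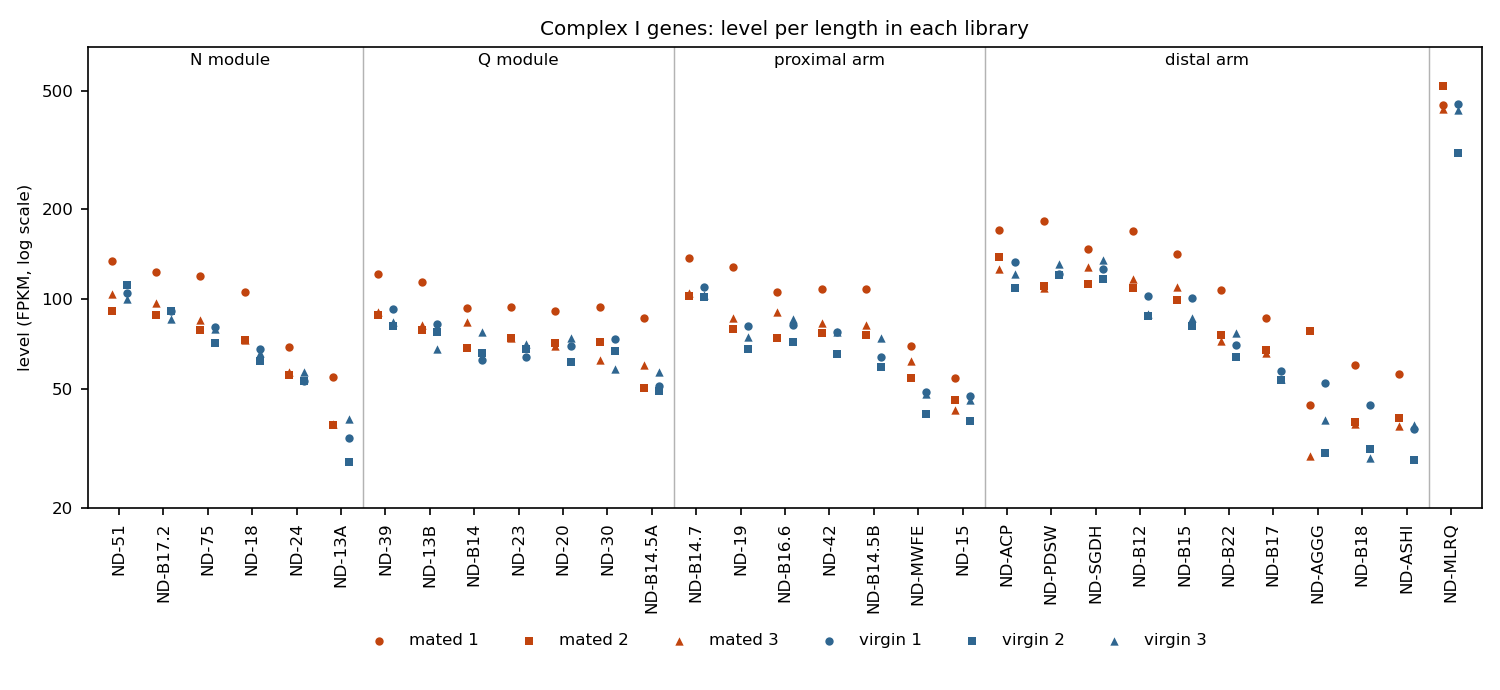
Level of 31 of the 32 tested complex I genes in each library (y axis, FPKM on a log scale; x axis, genes by module and falling mean; red, mated; blue, virgin; the marker shape gives the library number). ND-MLRQ lies above all others, and mated 1 (red circle) is the highest point in 29 genes.

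The core subunits of the N module, which take electrons from NADH, did not differ between mated and virgin midguts beyond the spread of the libraries. ND-51 (2L, 6060842 to 6062757, dm6), the counterpart of NDUFV1 that binds NADH and the flavin cofactor, had 214, 145 and 166 CPM in mated 1 to 3, against 167, 177 and 159 CPM in virgin 1 to 3. Mated 1 was the highest of the 6 libraries and mated 2 the lowest, so the groups overlapped (log2 fold change of mated over virgin 0.06 ± 0.15, SE; edgeR adjusted p = 0.883). ND-75 (X, 8248651 to 8251687), the counterpart of NDUFS1 and the largest subunit, which carries iron-sulfur clusters, had 314, 208 and 225 CPM in mated and 213, 188 and 210 CPM in virgin libraries. Here too mated 1 was high, and mated 2 was below virgin 1 and virgin 3 (log2 fold change 0.29 ± 0.16, adjusted p = 0.406). ND-24, the counterpart of NDUFV2 and also an iron-sulfur protein, had a log2 fold change of 0.15 ± 0.13.

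Among the supernumerary genes of the N module, ND-18 (X, 19492421 to 19493337), the counterpart of NDUFS4, whose loss in mammals destabilises the module, had 81.2, 56.0 and 56.1 CPM in mated and 52.5, 47.5 and 50.8 CPM in virgin libraries. All 3 mated values lay above all 3 virgin values, with mated 2 and mated 3 close to virgin 1 (log2 fold change 0.36 ± 0.16, unadjusted p = 0.0450, adjusted p = 0.275 in edgeR). ND-13A, the counterpart of NDUFS6, had 52.3, 36.0 and 36.3 CPM in mated and 32.8, 27.1 and 37.8 CPM in virgin libraries, and overlapped because virgin 3 exceeded mated 2 and mated 3. The 6 tested genes of the module had a median log2 fold change of 0.25 and 0 passed. The median was -0.02 when libraries were scaled by their size alone.

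In the Q module, which passes the electrons to ubiquinone, differences were small. ND-23 (3R, 15836048 to 15837117), the counterpart of the iron-sulfur protein NDUFS8, had 76.9, 60.8 and 60.9 CPM in mated and 52.3, 55.6 and 57.9 CPM in virgin libraries. The groups did not overlap, but mated 2 and mated 3 were close to virgin 3 (log2 fold change 0.26 ± 0.13, adjusted p = 0.363). The module's largest value was that of ND-B14.5A, the counterpart of NDUFA7, with 69.6, 40.5 and 48.6 CPM in mated and 41.2, 39.9 and 46.1 CPM in virgin libraries; mated 2 lay below virgin 1 and virgin 3 (log2 fold change 0.32 ± 0.19). The 8 genes had a median of 0.24, which was -0.02 when scaled by library size alone, and 0 passed.

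The proximal membrane arm held ND-MWFE (2R, 13158666 to 13160190) and ND-B14.5B (2L, 3144953 to 3145848), counterparts of the small membrane subunits NDUFA1 and NDUFC2. ND-MWFE had 58.9, 45.8 and 52.4 CPM in mated and 41.2, 34.9 and 40.5 CPM in virgin libraries. All mated libraries lay above all virgin libraries (log2 fold change 0.43 ± 0.14, unadjusted p = 0.0112, adjusted p = 0.140 in edgeR). Without mated 1 the log2 fold change of ND-MWFE was 0.34 (adjusted p = 0.401 in edgeR). ND-B14.5B had 82.2, 57.7 and 62.2 CPM in mated and 49.0, 45.3 and 56.7 CPM in virgin libraries, without overlap, though mated 2 was only just above virgin 3 (log2 fold change 0.42 ± 0.16, unadjusted p = 0.0213, adjusted p = 0.192). ND-15, the counterpart of NDUFS5, had the smallest value of this group at 0.11 ± 0.14. The 7 genes had a median of 0.29, or 0.02 when scaled by library size alone, and 0 passed.

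ND-MWFE can be measured only with strand. Its exons share 167 of 844 bases with TppII on the opposite strand and 128 with Nrk on the same strand in the annotation. It had 720 to 1289 reads per mated library and 727 to 1242 per virgin library in the reverse-strand column, but 13 to 29 and 0 to 24 in the unstranded column. In that column its log2 fold change was 1.77 ± 1.06 (adjusted p = 0.437). For the other 31 tested genes the unstranded column held 92.2% to 100.4% of the reverse-strand reads.

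In the distal membrane arm the median log2 fold change was 0.34 over 10 tested genes, and 0.15 without mated 1. Without virgin 3 it was 0.33, below the 0.35 of the proximal arm. ND-B12 (2R, 21658078 to 21658777), the counterpart of NDUFB3, had 103, 66.0 and 70.7 CPM in mated and 62.1, 53.2 and 53.9 CPM in virgin libraries. The groups did not overlap, and mated 1 was far above the other mated libraries (log2 fold change 0.50 ± 0.17, 95% interval 0.13 to 0.88, unadjusted p = 0.0133, adjusted p = 0.152). ND-B17 (2L, 15749319 to 15751078), the counterpart of NDUFB6, had 85.7, 67.0 and 65.8 CPM in mated and 56.9, 53.0 and 53.7 CPM in virgin libraries. It had the lowest adjusted p of the 32 genes, and its lowest mated library lay above its highest virgin library (log2 fold change 0.42 ± 0.14, unadjusted p = 0.0107, adjusted p = 0.137). ND-B15, the counterpart of NDUFB4, had 67.7, 47.5 and 52.4 CPM in mated and 48.1, 38.8 and 41.2 CPM in virgin libraries, and overlapped because mated 2 was just below virgin 1 (log2 fold change 0.39 ± 0.16, unadjusted p = 0.0330, adjusted p = 0.239).

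At the other end of this arm stood ND-SGDH, the counterpart of NDUFB5, with 131, 99.9 and 114 CPM in mated and 112, 104 and 120 CPM in virgin libraries. Both the highest and the lowest value were mated (log2 fold change 0.04 ± 0.14, adjusted p = 0.922). ND-PDSW, the counterpart of NDUFB10, had 135, 81.4 and 80.4 CPM in mated and 89.4, 89.1 and 96.9 CPM in virgin libraries, so mated 2 and mated 3 were below every virgin library and mated 1 above (log2 fold change 0.11 ± 0.19). ND-ACP had 144, 117 and 106 CPM in mated and 112, 91.6 and 102 CPM in virgin libraries, overlapping by mated 3 (log2 fold change 0.26 ± 0.15). Between these, ND-B18 and ND-ASHI had log2 fold changes of 0.38 ± 0.21 and 0.37 ± 0.17 with overlapping groups. The median of the arm was 0.09 when scaled by library size alone, and 0 of its genes passed.

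**Figure D2:**
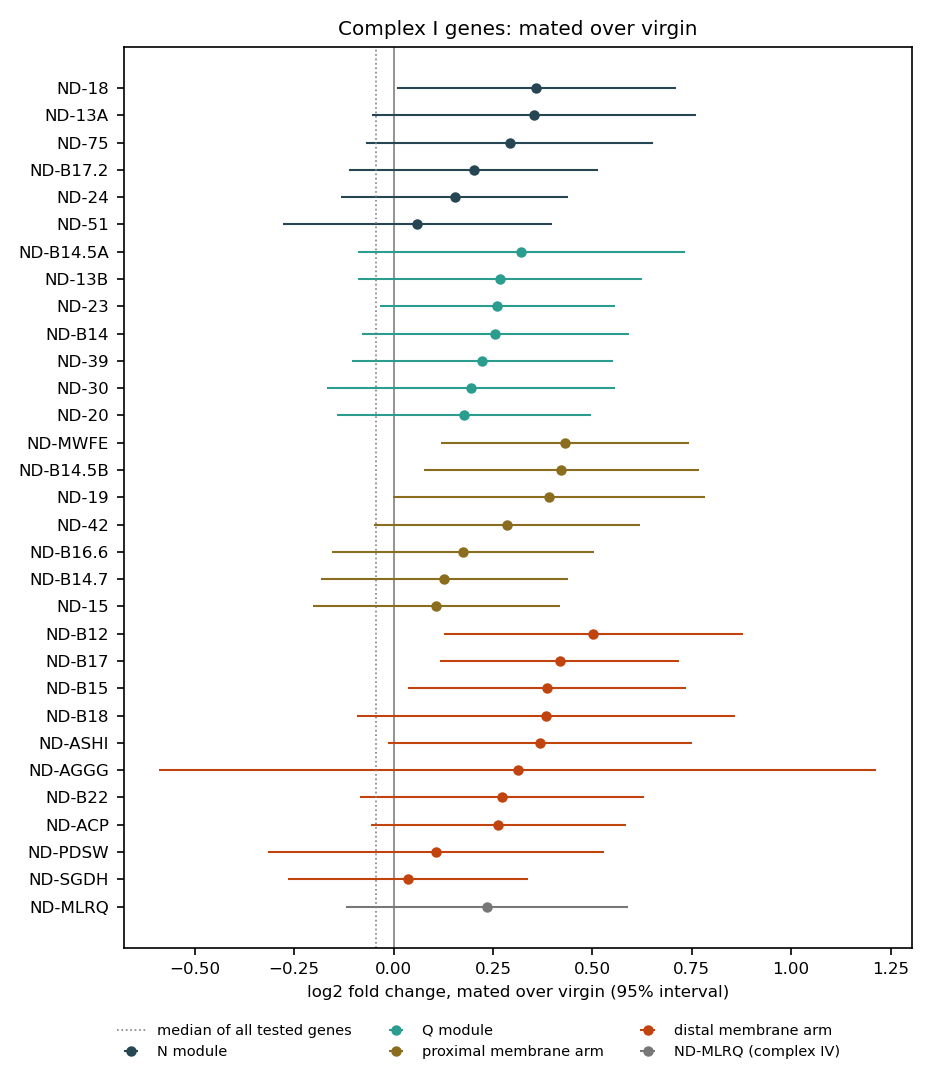
Log2 fold change of mated over virgin midguts for 31 of the 32 tested genes (x axis; points, edgeR estimates; bars, 95% intervals; genes ordered by module). All 31 points lie to the right of 0, and most intervals include 0.

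As a group, complex I genes had mostly positive log2 fold changes under TMM scaling, and no gene passed the test. In edgeR's quasi-likelihood test 0 of 32 passed an adjusted p of 0.05, against 4.1% of the 8607 genes tested. DESeq2 also passed 0, against 8.41% of the 7583 genes to which it gave an adjusted p. Limma-voom passed 0 as well, against 4.28% of 8607. An unadjusted p below 0.05 with a higher mated level was found for 6 of 32 genes (ND-18, ND-B12, ND-B14.5B, ND-B15, ND-B17 and ND-MWFE), or 18.8%, against 8.39% of all genes, and with a lower mated level for 0, against 8.85%. Mated libraries lay wholly above virgin libraries in 6 genes (ND-18, ND-23, ND-B12, ND-B14.5B, ND-B17 and ND-MWFE), or 18.8%, against 11.6% of all genes, and wholly below in 0, against 12.3%. Of the 36 tested nuclear genes of complexes II to V, 15, or 41.7%, lay wholly above and 0 wholly below. The log2 fold change was positive for 31 of 32 genes, against 45% of all genes, and for 17 of 32 when libraries were scaled by their size alone. The median was 0.27, against -0.05 over all genes.

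The size of that median depended on the scaling. Scaled by library size alone, the median of all genes moved to -0.30 and that of the complex I genes to 0.0067. The distance between both medians was 0.31, 0.31, 0.31 and 0.30 with scaling by TMM, RLE, upper quartile and library size. A change of scaling moves all genes by nearly the same amount, so this distance could hardly change and is no check. Under TMM scaling it was 0.15 without mated 1 and 0.068 without virgin 2 and mated 1. The upper 95% limit of the log2 fold change, from the TMM-scaled fit, was between 0.28 and 1.21 over the 32 genes, with a median of 0.61.

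**Figure D3:**
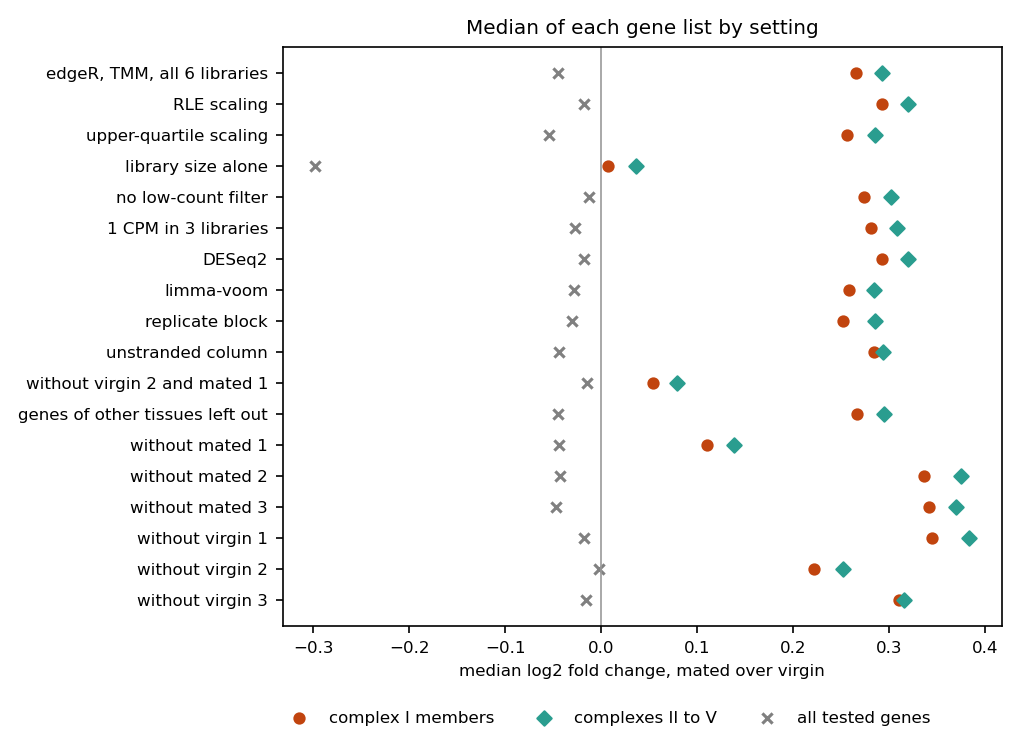
Median log2 fold change of mated over virgin (x axis) of the complex I members, the nuclear genes of complexes II to V and all tested genes under each setting (rows). Library size scaling shifts all 3 medians to the left, and leaving out mated 1, alone or with virgin 2, brings the complex I median to 0.11 and 0.054.

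The higher median rested largely on mated 1. This library had the highest level of 29 of the 32 genes, whereas it was highest in 16.3% of all tested genes. Virgin 2 had the lowest level of 21 of the 32, against 20.5% of all genes. The summed levels of complexes II, III, IV and V were also each highest in mated 1 and lowest in virgin 2. Above all 3 virgin libraries lay 29 genes in mated 1, 10 in mated 2 and 14 in mated 3, and 26.1%, 25.0% and 23.9% of all genes did so. Relative to the mean of the virgin libraries on the log2 scale, the median complex I gene was 0.53 higher in mated 1, 0.09 higher in mated 2 and 0.13 higher in mated 3. Without mated 1 the median log2 fold change was 0.11, 27 of 32 values were positive and 0 had an unadjusted p below 0.05 in edgeR. Without virgin 2 the median was 0.22, with 3 genes below an unadjusted p of 0.05. Mated 1 also had the lowest TMM factor, 0.860 (0.926 to 0.965 in the other mated libraries and 1.04 to 1.13 in the virgin libraries), the highest share of unmapped reads, 12.8% (5.47% to 10.6% in the others), the highest enterocyte marker sum, 56738 CPM (38332 to 46253 CPM in the others), and the highest visceral muscle sum, 4774 CPM. The muscle sum was 4331 CPM in mated 2 and 3441 CPM in mated 3. Most of the enterocyte sum came from alphaTry and betaTry, at 29738 and 23856 CPM in mated 1. Of the other enterocyte markers, Myo61F and nub were also highest in mated 1, but Myo31DF and Vha100-4 were highest in virgin 1. The part of these measures in the result was not tested.

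**Figure D4:**
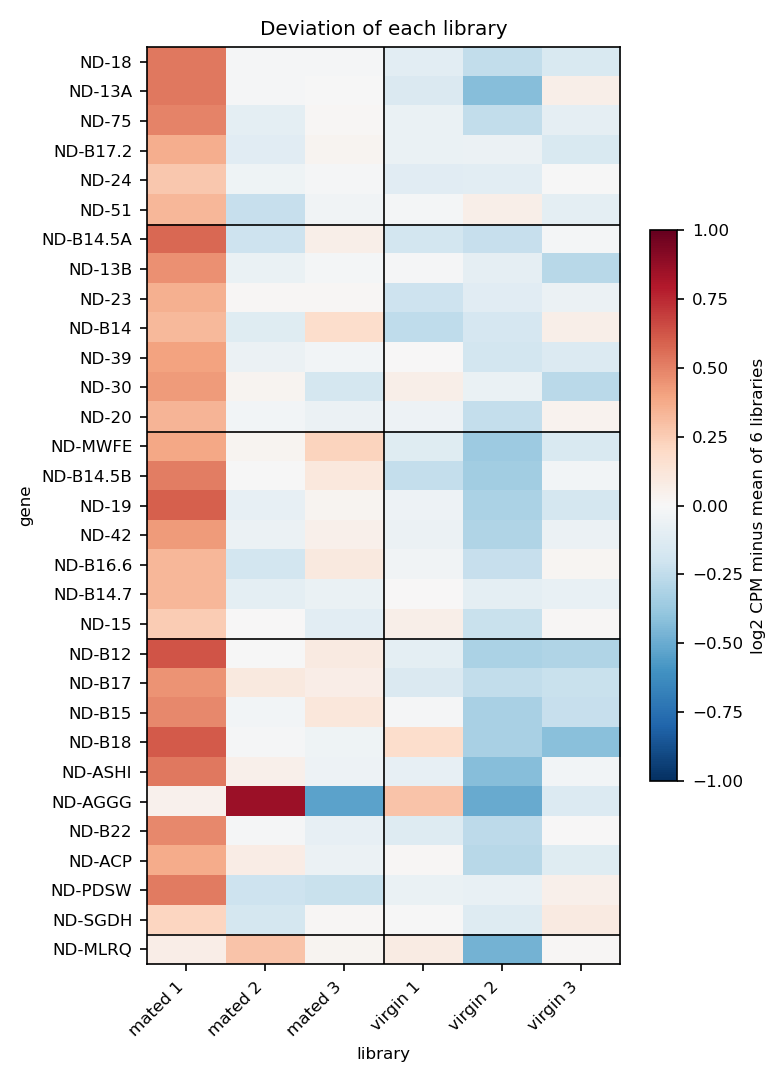
Deviation of log2 CPM from the mean of the 6 libraries (colour, from -1 to 1) for 31 of the 32 tested genes (rows, by module) in each library (columns, mated left of virgin). The mated 1 column is red in nearly every row and the virgin 2 column mostly blue, and ND-AGGG differs from the rest.

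Across the 6 libraries, most complex I genes varied together. The same correlation is not given for other gene groups, so it is not shown to be particular to complex I. The correlation of log2 CPM over the 6 libraries, which share the scaling and the library-wide shifts just given, had a median of 0.82 over the 496 pairs of genes. The correlation of each gene with the median of the other members ranged up to 0.99 for ND-18 and was lowest for ND-AGGG (0.26) and ND-MLRQ (0.36). The SD of log2 CPM within groups had a median of 0.21 over the 32 genes, against 0.17 over the 2497 tested genes in the same range of CPM.

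Summed over the members, complex I genes had 3554, 2696 and 2716 CPM in mated 1 to 3 and 2672, 2351 and 2629 CPM in virgin 1 to 3. The groups did not overlap, but mated 2 and mated 3 were close to virgin 1. As a share of all gene counts, which amounts to scaling by library size alone, the groups overlapped. Complex I genes made up 0.306%, 0.260% and 0.251% of gene counts in mated 1 to 3 and 0.277%, 0.261% and 0.297% in virgin 1 to 3. Both groups held high and low libraries, and the means were 0.272 ± 0.0291% in mated and 0.278 ± 0.0176% in virgin midguts (SD, n = 3 each). Ratios between gene groups within a library do not depend on the scaling. The ratio of complex I counts to those of 37 nuclear genes of complexes II to V was 0.272, 0.281 and 0.288 in mated and 0.277, 0.285 and 0.285 in virgin libraries. The ratios overlapped, with means of 0.280 ± 0.00762 in mated and 0.282 ± 0.00460 in virgin libraries. Mated 1, with the highest complex I level, had the lowest ratio of the 6.

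The ratio to the 92 cytosolic ribosomal protein genes did separate the groups. It was 0.0496, 0.0471 and 0.0456 in mated and 0.0285, 0.0275 and 0.0341 in virgin libraries, a 1.58-fold difference between the means. The lowest mated library lay above the highest virgin library. The ribosomal protein genes themselves had a median log2 fold change of -0.43, with 7 of 83 tested members lower, against 1.63% of all genes, and 0 higher, against 2.47%.

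**Figure D5:**
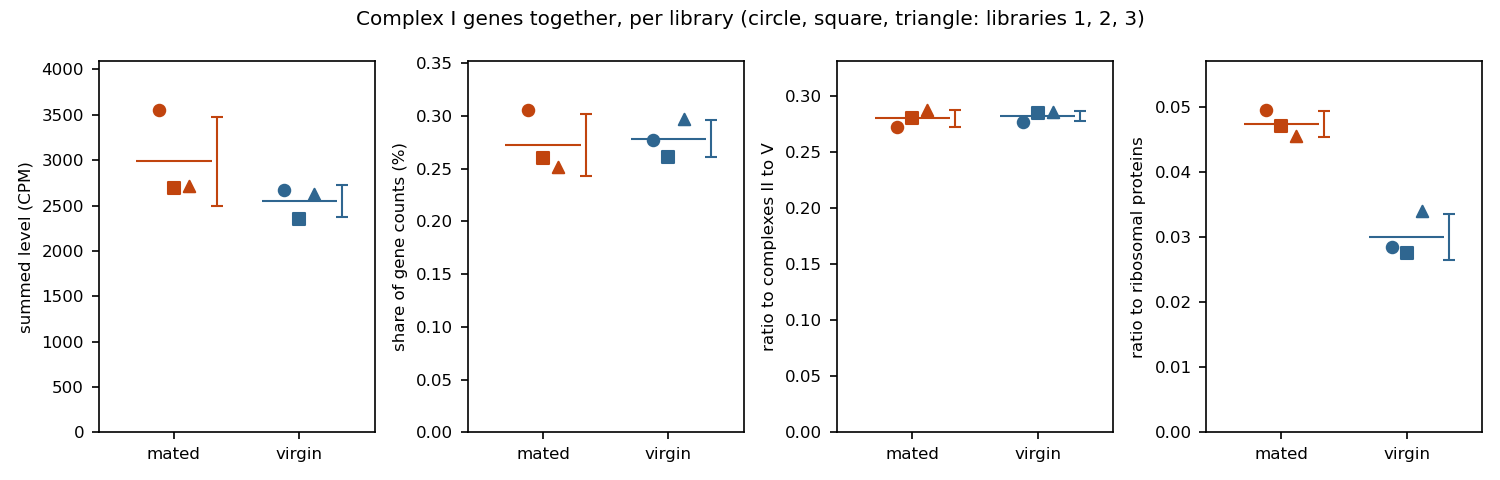
Complex I genes summed per library: summed CPM, percent of gene counts, ratio to the counts of complexes II to V and ratio to the counts of cytosolic ribosomal protein genes (y axes from 0; points, libraries; lines, means; bars, SD, n = 3). The summed CPM is highest in mated 1, the share and the ratio to complexes II to V overlap, and the ratio to ribosomal protein genes is higher in all 3 mated libraries.

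The 24 tested supernumerary subunits had a median log2 fold change of 0.30 and the 7 nuclear core subunits 0.18, or 0.04 and -0.08 when scaled by library size alone and 0.13 and 0.039 without mated 1. All 6 genes with an unadjusted p below 0.05 in edgeR were supernumerary, and all 6 had under 1000 exon bases. Core genes were mostly long. Of the 21 tested members with under 1000 exon bases the median was 0.27, and of the 11 longer ones 0.18, while over all tested genes it was 0.05 under and -0.06 above that length. Over the 32 genes the rank correlation of exon length with log2 fold change was -0.27, and over the 2345 tested genes in the same CPM range with a known length -0.18. The part of gene length in the difference between core and supernumerary subunits was not tested.

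Several members could not be read from these files. ND-MNLL, the counterpart of NDUFB1, was listed at 0 in all 6 libraries; all 720 of its exon bases lie within CG45089 on the same strand, which was also listed at 0, and in the layout of these counts a read over both genes belongs to neither. ND-B8, the counterpart of NDUFA2, was listed at 0 too, with 71 of its 460 exon bases shared with Gs1l on the opposite strand and none shared on its own. A count of 0 allows up to 0.0937 to 0.191 CPM per library, counting error only, but a subunit of the complex listed at 0 in an expressing tissue gives no level.

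The paralogues of complex I genes had few or no reads. Duplicates of nuclear genes for mitochondrial proteins are often expressed mainly in the testis in flies. Of the 6 paralogues, 5 had 0 reads, among them ND-20L, ND-24L, ND-51L2 and ND-B14.5AL, in every library. ND-51L1 had 10, 0 and 1 reads in mated and 0, 29 and 7 reads in virgin libraries. Virgin 2, with the most, also held the ovary transcript osk, whereas mated 1 and virgin 3 had 0 osk reads. The parent genes ND-20, ND-24, ND-51 and ND-B14.5A had mean levels of 57.5 to 108 FPKM.

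A pair of the nuclear complex I genes looked at here lies outside the prefix. NP15.6, the counterpart of NDUFB11 in the distal arm, had 110, 85.6 and 87.0 CPM in mated and 78.1, 68.5 and 73.0 CPM in virgin libraries, without overlap (log2 fold change 0.36 ± 0.14, unadjusted p = 0.0223, adjusted p = 0.197 in edgeR). CG40472, which RefSeq lists as a second NDUFB2 gene beside ND-AGGG, had 25.6, 35.8 and 15.4 CPM in mated and 16.6002, 10.1 and 13.0 CPM in virgin libraries, and overlapped by mated 3 (log2 fold change 0.95 ± 0.30, unadjusted p = 0.0115, adjusted p = 0.142). ND-AGGG had 33.1, 58.1 and 22.1 CPM in mated and 39.1, 22.7 and 29.3 CPM in virgin libraries, and mated 2 was the highest library for both genes. They lie 48544 bases apart on 3L (CG40472 at 24927130 to 24927710, ND-AGGG at 24976254 to 24977118), and how far reads are shared between these copies is not known from the counts.

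ND-MLRQ, outside these modules, had 240, 279 and 234 CPM in mated and 243, 166 and 232 CPM in virgin libraries. Mated 2 was high and virgin 2 low, and the other libraries lay together (log2 fold change 0.24 ± 0.16, adjusted p = 0.509; -0.01 when scaled by library size alone).

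Other genes around the complex did not follow a single direction. Of 7 tested assembly factors, which help build the complex and do not stay in it, 0 passed, and their median log2 fold change was -0.18. CIA30, the counterpart of NDUFAF1, had 21.5, 18.3 and 21.6 CPM in mated and 12.1, 15.5 and 16.999 CPM in virgin libraries, the only positive value of the 7 (log2 fold change 0.47 ± 0.18, unadjusted p = 0.0280, adjusted p = 0.219). Sicily, the counterpart of NDUFAF6, had 9.54, 6.87 and 7.70 CPM in mated and 11.4, 8.90 and 15.4 CPM in virgin libraries (log2 fold change -0.56 ± 0.25, unadjusted p = 0.0477, adjusted p = 0.284). Of 8 tested regulators of mitochondrial genes and their transcription and replication, such as srl (the PGC-1 counterpart) and ewg (the NRF-1 counterpart), 0 passed. Under TMM scaling 8 had negative values (median -0.25), whereas 45% of all genes had positive values (median of all genes -0.05). In edgeR 3 of the 8 were lower in mated midguts at an unadjusted p below 0.05, against 8.85% of all genes. Of the 36 tested nuclear genes of complexes II to V, 0 passed in edgeR (9 had an unadjusted p below 0.05) and 1 in DESeq2, and 36 had positive values, with a median of 0.29, or 0.04 when scaled by library size alone. That median was 0.14 without mated 1 and 0.079 without virgin 2 and mated 1. Cyt-c-p, cytochrome c, had 511, 257 and 227 CPM in mated and 181, 149 and 191 CPM in virgin libraries (log2 fold change 0.93 ± 0.31, adjusted p = 0.182), again with mated 1 far above the others.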

How the data were processed

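The submitters' processing notes name CASAVA 1.8.4, STAR without a version, DESeq2 1.42.0 and dm6, and give none of them a role; per the labels' protocols, libraries were made with a stranded polyA kit. The deposited values are the authors' raw read counts per gene, with an unstranded, a forward and a reverse column. The reverse column was used, and 4 summary rows were left out (unmapped, multi-mapped, no gene, ambiguous: 9.21 ± 3.64%, 6.75 ± 1.01%, 6.42 ± 1.92% and 1.20 ± 0.0507% of mated and 9.13 ± 2.15%, 4.73 ± 0.366%, 6.97 ± 2.06% and 1.24 ± 0.0546% of virgin reads; SD, n = 3 each). Positions and exon lengths come from the Ensembl annotation of dm6, which matched all 40 members.

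Counts were fitted with edgeR 4.0.16 in R 4.3.3 (filterByExpr, 8607 genes; TMM; glmQLFit, robust; two-sided glmQLFTest, mated or virgin as the sole factor), with Benjamini-Hochberg adjustment over all tested genes. The common biological coefficient of variation was 0.291. "Higher", "lower" and "passed" mean an adjusted p below 0.05. In none of the 6 same-group pairs did libraries match within sampling noise (chi-square per degree of freedom at least 20.6). The pipeline was tested on simulated counts. Other settings tried were scaling by RLE, by upper quartile or by library size, 2 other low-count filters, DESeq2 1.42.0, limma-voom (limma 3.58.1), a replicate block, the unstranded column, libraries left out, and genes of other tissues left out.

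Members and lists were chosen with earlier results of these data known, so no p is given for sums over the members, and an exact test of 3 against 3 cannot go below 0.1. Named genes were those with an unadjusted p below 0.05, the extremes by fold change, by level per length and by module, the paralogues, and ND-ACP, ND-MLRQ, ND-75 and ND-51. Of these, 1 member is not reported here by name and is left out of the plots by gene; counts and medians over the members include it. ND-20, ND-23, ND-24, ND-39, ND-42, ND-AGGG, ND-B17.2, ND-B22 and the named genes of other lists were chosen after their values were seen. Promoter motifs and protein comparisons were not analysed here.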

Additional observations from a re-analysis of the deposited data

Results flagged for a closer look

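In the forward-strand column, which the comparisons do not use, the CPM of every mated library lay above that of every virgin library for 7 of the 32 tested complex I genes (ND-39, ND-B12, ND-B14.5B, ND-B17.2, ND-B18, ND-PDSW and ND-SGDH), or 21.9%, against 7.51% of all tested genes. With more than 3 such reads in each mated library there were 2 of 32, ND-SGDH and ND-PDSW, or 6.25%, against 4.51% of all tested genes. ND-SGDH had 24, 9 and 19 such reads in mated and 10, 7 and 0 in virgin libraries, or a mean of 0.890 CPM in mated and 0.184 CPM in virgin midguts; 64 of its 888 exon bases are shared with Atg12 on the opposite strand. ND-PDSW had 4 such reads in each mated library and 0 in each virgin library, a mean of 0.216 CPM in mated and 0 in virgin midguts. All rest on few reads. The rule for samples far from their group needs at least 4 samples and was not applied to groups of 3.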

How the results depend on the processing

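No complex I gene passed in any of the settings tried. The count of genes passing was 353, against 872 with library size alone (146 higher, 726 lower, so 16.7% of calls were higher against 60.3%), 638 in DESeq2, 191 without virgin 2 and mated 1, and 169 to 308 with 1 library left out. The complex I median of 0.27 became 0.0067 with library size alone, 0.054 without virgin 2 and mated 1, and 0.11 to 0.35 with 1 library left out. The ratio of the mated to the virgin mean, with 1 library left out, was 0.919 to 1.016 for the share of counts (0.978 with all), above 1 without mated 2, mated 3 or virgin 3. It was 0.980 to 1.006 for the ratio to complexes II to V (0.993 with all), above 1 without mated 1, and 1.52 to 1.69 for the ratio to ribosomal protein genes (1.58 with all). Log2 fold changes turned negative for 14 of 32 genes with library size alone, 7 without virgin 2 and mated 1, 4 without mated 1, and 1 each without mated 2 (ND-AGGG, -0.13) and without virgin 2. Among the genes named by the rule these were, with library size alone, ND-15 (-0.15), ND-51 (-0.20), ND-MLRQ (-0.010), ND-PDSW (-0.16) and ND-SGDH (-0.22). Without virgin 2 and mated 1 they were ND-15 (-0.080), ND-51 (-0.071), ND-PDSW (-0.20) and ND-SGDH (-0.12), without mated 1 ND-51 (-0.11), ND-PDSW (-0.18) and ND-SGDH (-0.068), and without virgin 2 ND-SGDH (-0.0086). With 1 library left out their highest values were 0.18 for ND-51, 0.24 for ND-PDSW and 0.13 for ND-SGDH. The cause was not tested. With replicate number as a block, 290 genes and 0 complex I genes passed, with a complex I median of 0.25. Deviations of same-numbered libraries correlated at -0.15, -0.05 and -0.03, and those of differently numbered libraries at -0.06 to 0.10. These values give no sign that the numbers pair the samples. They cannot exclude it, because deviations from a mean of 3 libraries depend on each other. With 3 libraries a group, the intervals of most members include 0 and also differences beyond the estimates.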

Other observations

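The members with the weakest correlation with the rest, ND-AGGG and ND-MLRQ, both lie in the proximal part of 3L (ND-MLRQ at 23339326, ND-AGGG at 24976254). This was seen after their values, as was the boundary used here, 23000000 on 3L. Of the 22 tested genes beyond it, mated 2 was the highest library in 45.5%. ND-AGGG, ND-MLRQ and CG40472, which prompted the observation, are among the 22; in the other 19 the share was 36.8%. It was 35.9% in the 64 tested genes of chromosome 4, 15.7% in the 1527 tested genes of the rest of 3L and 13.4% in all tested genes. Relative to the mean of the 6 libraries on the log2 scale, the median gene beyond the boundary was at -0.22, 0.17 and -0.09 in mated 1 to 3 and at 0.14, -0.06 and 0.21 in virgin 1 to 3. On chromosome 4 it was at -0.24, 0.19 and -0.04 in mated 1 to 3 and at 0.17, -0.09 and 0.11 in virgin 1 to 3. Mated 1, where most complex I genes were highest, was thus the lowest library for the median gene of both regions.

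ND-ASHI had 17.3% of its stranded reads on the forward strand and ND-13A 6.25%, whereas the other 30 tested members had at most 1.94% and all genes together 1.86% to 2.32% per library. ND-ASHI shares 77 exon bases with Fum1 and ND-13A shares 118 with CG4230, both on the opposite strand. Longer opposite-strand overlaps, of 167 to 227 bases, were found in tested members with forward shares of 0.409% to 1.94%. The part of the overlaps in these shares was not tested.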
